A study of Mus musculus with 10 samples.

Results

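Sites that carry cohesin, Ctcf and the SWI/SNF chromatin remodelling complex together were examined in mouse hepatocytes. They are the summits of Rad21 ChIP-seq peaks on the 19 autosomes that had at least 1 Ctcf summit, 1 Brg1 summit and 1 Arid1a summit within 1 kb. A summit is the base at which a peak is highest. Of 100056 autosomal Rad21 summits, 5336 met this rule and are called 4-factor sites here. They were chosen by the WT peak positions of the 4 factors, so their presence at these sites is a definition, not a finding. The 4-factor sites formed 4819 separate loci when neighbours within 1 kb were joined, of which 4326 held 1 summit, 469 held 2 and 24 held 3. Neighbouring sites shared partners, so that 4853 Ctcf, 4898 Brg1 and 4859 Arid1a summits served as the nearest partner of the 5336 sites.

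Rad21 is a subunit of cohesin, the ring-shaped complex that holds sister chromatids together and extrudes loops of chromatin. Ctcf is a zinc finger protein that binds a long DNA motif and stops cohesin at loop anchors and domain boundaries. Brg1, encoded by Smarca4, is an ATPase of SWI/SNF, and Arid1a is the large DNA-binding subunit that defines the canonical BAF form of that complex, which moves nucleosomes at promoters and enhancers.

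The AB17 line consists of primary hepatocytes from the liver of an Arid1a fl/fl mouse on the C57BL/6 strain. It was immortalized with the SV40 large T antigen and then given H-Ras V12D, and both genotypes carry these oncogenes. Wildtype (WT) cells received the control adenovirus Ad-GFP and knockout (KO, Arid1a-/-) cells received Ad-Cre, an adenovirus that expresses Cre recombinase. The study asked how loss of Arid1a affects chromatin organization. Rad21, Ctcf, Brg1 and Arid1a were profiled in WT cells only. H3K9me3, typical of heterochromatin, and H3K27me3, deposited by Polycomb, have a library in each genotype, and every antibody has 1 library per genotype of this 1 line. The 4-factor sites are therefore WT positions, and the KO marks were set against them. With 1 library per group no replicate error exists and no test between groups was possible. Shares are given with 95% Wilson binomial intervals, which cover counting error only. The lists hold no expression values, so hepatocyte identity could not be examined in them, and no read depth can be taken from them. Strength is given as the −log10 q-value of the peak, which grows with depth and can be compared within a list but not between antibodies.

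To show what the DNA at these sites looks like, the sequences of 5 promoter sites and 3 distal sites are printed. They are the top-ranked sites, by the lowest of the 4 factor values, at which a match to the Ctcf core lay within 50 bp of the Rad21 summit and the window touched no annotated exon. The core, a stretch of fixed and free letters from the middle of the Ctcf motif, was searched on both strands. Each window holds 62 bases of the GRCm38 (mm10) reference and is written 5′ to 3′ on the strand of the core, which stands in capitals. The promoter windows were chr10:40259130-40259191 near Gtf3c6 (plus strand), chr9:64179519-64179580 near Snapc5 (minus strand), chr8:122551689-122551750 near Piezo1 (minus strand), chr13:23697538-23697599 near Hist1h4c (minus strand) and chr10:80929182-80929243 near Gadd45b (plus strand). The distal windows were chr1:86532524-86532585 near Ptma (minus strand), chr7:125581547-125581608 near Il21r (minus strand) and chr4:141273392-141273453 near Epha2 (plus strand).
Gtf3c6: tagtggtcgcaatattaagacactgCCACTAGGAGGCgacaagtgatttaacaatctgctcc
Snapc5: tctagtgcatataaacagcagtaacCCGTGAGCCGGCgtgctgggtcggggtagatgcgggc
Piezo1: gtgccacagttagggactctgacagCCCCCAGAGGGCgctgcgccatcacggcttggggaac
Hist1h4c: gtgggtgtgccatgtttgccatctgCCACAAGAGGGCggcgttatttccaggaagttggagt
Gadd45b: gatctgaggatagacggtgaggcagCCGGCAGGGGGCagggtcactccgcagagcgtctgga
Ptma: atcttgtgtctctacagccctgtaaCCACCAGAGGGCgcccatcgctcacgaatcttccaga
Il21r: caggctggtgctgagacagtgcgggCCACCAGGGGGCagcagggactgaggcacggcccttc
Epha2: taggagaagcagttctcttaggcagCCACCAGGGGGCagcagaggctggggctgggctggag

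The −log10 q-values at the Piezo1 site were 69.4 for Rad21, 135 for Ctcf, 6.41 for Brg1 and 5.97 for Arid1a. At the Gadd45b site they were 96.3, 127, 10.2 and 4.92 in the same order. The Hist1h4c site had a weaker Rad21 peak of 5.38, with 18.4 for Ctcf, 5.90 for Brg1 and 5.44 for Arid1a. Piezo1 encodes a mechanically gated ion channel, and Gadd45b a stress-induced regulator of growth arrest. Most 4-factor sites had no core match, as given with the other motifs.

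Most 4-factor sites lay at promoters. Within 2 kb of an annotated transcript start were 3619 sites, or 67.8% (66.6 to 69.1), where 28.3% of all autosomal Rad21 summits did so. The share was 51.8% (50.4 to 53.3) of the 4383 Rad21 summits with Brg1 and Arid1a but no Ctcf, and 21.5% (21.1 to 22.0) of the 35514 Rad21 summits with Ctcf but neither Brg1 nor Arid1a. The promoter share of the 4-factor sites thus stood above both sets that lack a partner. The remaining 1717 sites are called distal and comprised 138 in exons, 879 in introns and 700 between genes. Distal sites were also nearer to starts than other distal Rad21 summits, with a median distance of 7414 bp against 11217.5 bp over all distal Rad21 summits. Within 10 kb of a start lay 61.0% of them, against 46.1% of all distal Rad21 summits, and 86 lay more than 50 kb away.

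The base composition of the sites differed between both places. Over 250 bp on each side of the Rad21 summit the median GC content was 58.1% at promoter sites and 47.1% at distal sites, against 51.5% and 46.9% over all promoter and all distal Rad21 summits. The ratio of observed to expected CpG had a median of 0.657 at promoter sites and 0.223 at distal sites. Promoter 4-factor sites were thus richer in GC than promoter Rad21 summits in general, for which the CpG ratio was 0.327. Distal 4-factor sites were close to other distal summits. Promoter Rad21 summits with Brg1 and Arid1a but no Ctcf had a median GC content of 55.3% and a CpG ratio of 0.569. Summits were also denser around 4-factor sites, with a median of 14 summits of the 4 factors within 10 kb, against 8 around all Rad21 summits. Around Rad21 summits with Brg1 and Arid1a but no Ctcf the median was 12. Part of the density at 4-factor sites is fixed by the rule, which asks for at least 4 summits.

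The strength of the factors at the 4-factor sites is given as a description, since their peaks chose the sites. Rad21 had a median −log10 q-value of 4.45 (quartiles 2.96 and 8.76), and its whole autosomal list had a median of 3.34. Ctcf had a median of 6.66 (3.35 and 26.4) for the strongest summit within 1 kb, against 4.02 over its list. Brg1 had 3.34 (2.56 and 4.49) against 2.56, and Arid1a had 3.17 (2.54 and 3.99) against 2.70. A value of at least 5 was reached by Brg1 at 18.8% of sites, against 3.94% of its list, and by Arid1a at 12.03% against 2.48%. For Rad21 these shares were 44.4% and 25.9%, and for Ctcf 57.1% and 41.0%. For Ctcf, Brg1 and Arid1a the strongest summit in a window was set against single summits of the list, which raises the values at sites by construction. The higher values are therefore not read as a property of the sites. All 4 factors reached 3 at 1257 sites (23.6%) and 5 at 91 sites (1.71%).

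Promoter and distal sites differed in their factors. Arid1a had a median of 3.33 at promoter sites and 2.70 at distal sites, and Brg1 had 3.59 and 3.16. Ctcf was ordered the other way, with 6.26 at promoter sites and 8.03 at distal sites. The highest Brg1 value was 78.6 at promoter sites and 17.95 at distal sites, and the highest Arid1a value was 66.2 and 13.3. SWI/SNF peaks were thus stronger at promoter sites and Ctcf peaks stronger at distal sites, without replicate libraries to set these differences against.

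The 4 summits of a site seldom coincided. The nearest Ctcf summit was a median of 190 bp from the Rad21 summit, the nearest Brg1 summit 328 bp and the nearest Arid1a summit 333 bp. Within 100 bp of Rad21 were Ctcf at 34.9% of sites, Brg1 at 17.4% and Arid1a at 16.7%. Ctcf was the closest partner at 2580 sites (48.4%). The 4 summits spanned a median of 727 bp, and at 223 sites (4.18%) they lay within 200 bp. Brg1 and Arid1a, members of 1 complex, were a median of 349 bp apart, measured between the summits nearest to Rad21. The sites just inside the limit, with the farthest partner over 900 and up to 1000 bp away, numbered 644, and their Rad21 median was 3.80. The 665 summits just outside it, over 1000 and up to 1100 bp, had a Rad21 median of 3.86. Of the former 66.5% and of the latter 63.3% lay at promoters.

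Relative to the outermost gene starts the median summit of each factor lay on the transcribed side. Inner starts of a gene lie downstream of its outermost start, so part of this placing follows from the start chosen. The Actb site, for example, was 966 bp downstream of the outermost start but 33 bp from the nearest annotated start of that gene. Of the 3619 promoter sites, 2771 (76.6%) were within 2 kb of the outermost start of a protein-coding gene. Another 601 were at an inner start of a protein-coding gene and 247 only at starts of other genes. Measured along the gene, the median Rad21 summit lay 220 bp downstream of the outermost start, Ctcf 185 bp, Brg1 188 bp and Arid1a 182 bp. Arid1a was the most tightly placed, with a median absolute distance of 367 bp, against 426 bp for Brg1, 430 bp for Rad21 and 480 bp for Ctcf. Upstream of the start were 32.7% of the Arid1a summits and 39.0% of the Ctcf summits.

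**Figure D1:**
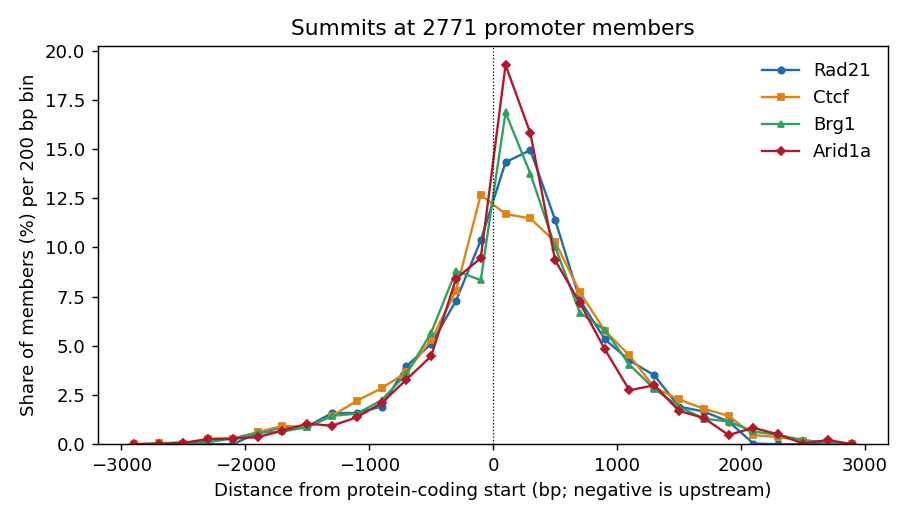
Position of the nearest summit of each factor around the outermost protein-coding start at 2771 promoter 4-factor sites. The x axis is the distance in bp along the gene (negative is upstream) and the y axis is the percentage of sites per 200 bp bin. Arid1a and Brg1 peak in the first bin downstream of the start, whereas Ctcf has its highest bin just upstream, and the medians of all 4 factors lie between 182 and 220 bp downstream.

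The top-ranked promoter sites belonged to genes of varied function. Hexim1, an inhibitor of the transcription elongation factor P-TEFb, had its site at chr11:103116789, 558 bp downstream of the start. Its −log10 q-values were 17.8 for Rad21, 51.6 for Ctcf, 11.3 for Brg1 and 10.6 for Arid1a. Actb, which encodes the beta actin of the cytoskeleton and of SWI/SNF itself, had 10.5, 64.8, 27.8 and 32.3 in the same order at chr5:142905788. Its Brg1 and Arid1a values were the highest of the 12 top-ranked genes. H2afx, the histone variant phosphorylated at DNA breaks, had 19.5, 43.2, 10.2 and 9.68 at chr9:44335125. Prdx1, a peroxide-reducing enzyme, had 10.4, 44.0, 9.03 and 14.4, and was 208 bp downstream of its start.

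Further sites of this rank lay at Ddit4, an inhibitor of mTORC1 induced by stress (22.6 for Rad21, 25.4 for Ctcf, 12.2 for Brg1 and 8.42 for Arid1a), and at Ccn1, a matricellular protein induced by serum (10.8, 11.5, 7.16 and 9.60). Col1a1, the alpha 1 chain of type I collagen, had the strongest architectural peaks among these 12 genes, with 74.3 for Rad21 and 129 for Ctcf beside 7.04 for Brg1 and 7.61 for Arid1a. Hist2h4, a histone H4 gene of a multicopy family, had values of 9.66, 8.78, 9.03 and 7.61. Grcc10, Alyref2, Ddah2 and Gtf3c6 completed the 12 genes, with Rad21 values between 12.8 and 27.8 and Arid1a values between 7.81 and 9.29. Over the 12 genes Rad21 therefore ranged from 9.66 to 74.3 and Ctcf from 8.78 to 129, while SWI/SNF values stayed under 13 at all of them except for Arid1a at Prdx1 and both subunits at Actb.

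Members of the top ranks without an outermost protein-coding start were named after their values had been seen. The first-ranked site of all lay at chr11:101658993, 755 bp from the start of Rnu2-10, a U2 small nuclear RNA gene, with 24.6 for Rad21, 32.3 for Ctcf, 30.4 for Brg1 and 16.9 for Arid1a. Gapdh and Timp3 had sites at inner starts, and the nearest start to the Gtf3c6 site was that of Rnu3a, a U3 small nucleolar RNA gene, at 661 bp. Small RNA and histone genes belong to families of near-identical copies, so the assignment of their reads to 1 copy is uncertain.

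**Figure D2:**
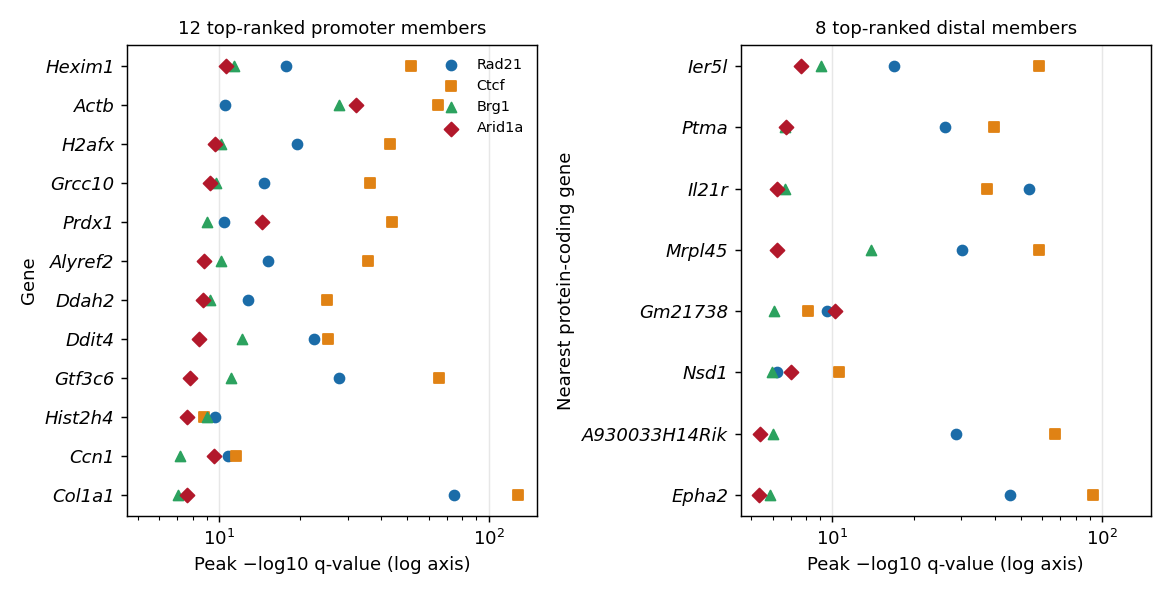
Peak strength of the 4 factors at the top-ranked promoter sites (left, 12 genes) and distal sites (right, 8 sites named by the nearest protein-coding gene). The x axis is the −log10 q-value of the strongest summit within 1 kb on a log axis, and each symbol is 1 library. Ctcf ranges up to 129 at Col1a1, and Brg1 and Arid1a lie between 5.36 and 14.4 except for 27.8 and 32.3 at Actb. Values can be compared among sites for 1 factor, not between factors.

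Of the distal sites, the first-ranked was intergenic at chr2:30469962, 4257 bp from the start of Ier5l, with 16.9 for Rad21, 58.2 for Ctcf, 9.04 for Brg1 and 7.64 for Arid1a. The site near Ptma, which encodes the nuclear protein prothymosin alpha, lay beyond the gene, 5794 bp downstream of its start, and had 26.1, 39.8, 6.68 and 6.70. The sites near Il21r (a cytokine receptor) and Epha2 (an ephrin receptor tyrosine kinase) were 21835 and 27811 bp upstream of the starts and had Rad21 values of 53.5 and 45.7. The lowest Rad21 values of the 8 distal sites were those near Nsd1, a histone H3K36 methyltransferase, with 6.25, 10.6, 5.96 and 7.03, and at Gm21738 (chromosome 14, exonic), with 9.57, 8.11, 6.06 and 10.2. The Gm21738 site lay at a soft-masked repeat, and its WT H3K9me3 summit of 26.0, only 8 bp away, was the strongest at any 4-factor site. The sites near Mrpl45 and in an intron of A930033H14Rik had Rad21 values of 30.2 and 28.7.

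To describe which genes carried such sites, the outermost starts of the 20807 autosomal protein-coding genes were used. A 4-factor site lay within 2 kb of 2650 of them, or 12.7%. Most of these genes had 1 site (2167), 443 had 2 and 40 had at least 3. A gene start on the opposite strand within 1 kb upstream, as at divergent promoters, was present at 11.9% of genes with a 4-factor site, against 6.97% of all genes and 10.3% of the 10905 genes with any Rad21 summit. Of 20 gene lists, 17 had a larger share than all genes, and the other 3 were plasma proteins, markers of other liver cells and olfactory receptors. A 4-factor site requires a Rad21 summit, so these shares partly reflect how often genes of a list had one. Of the 10905 genes with any Rad21 summit, 2650 had a 4-factor site. Counted the same way, lists lay on both sides of this. AP-1 and immediate early genes had 15 of 27 and epithelial-mesenchymal transition genes 14 of 28. SWI/SNF had 4 of 19, translation factors 4 of 21, glycolysis 4 of 17 and Hox genes 6 of 31. The lists were chosen with earlier results of these data known, and their shares are a description beside the 12.7% of all genes.

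**Figure D3:**
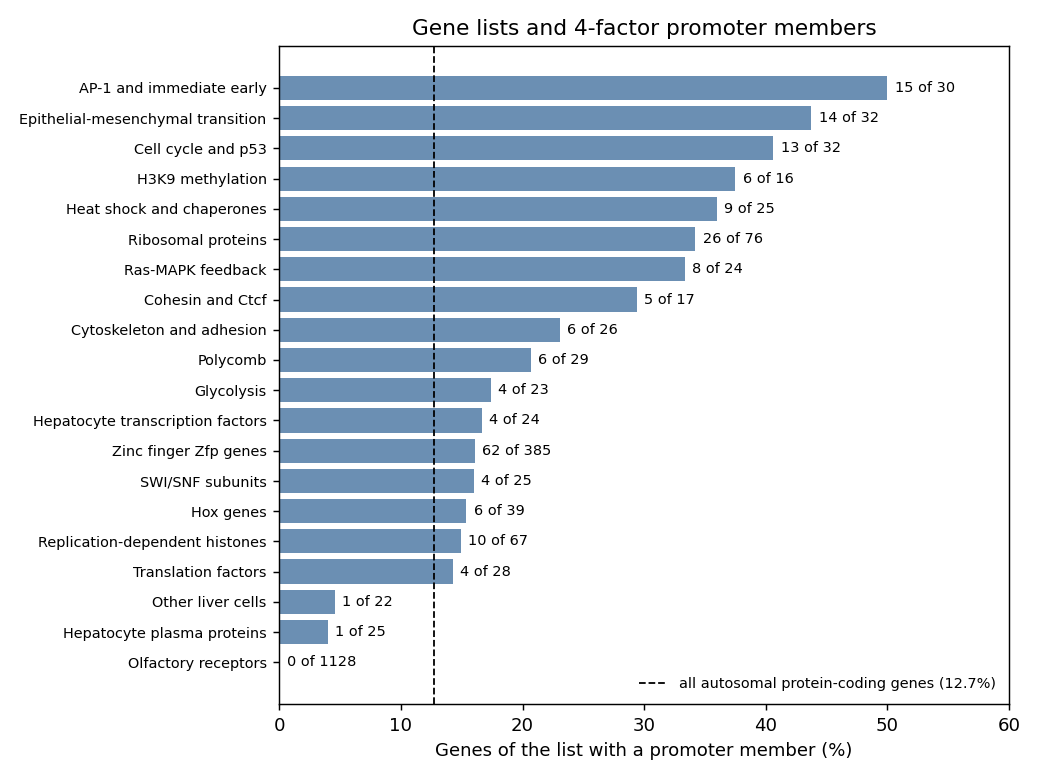
Share of the genes of each list with a 4-factor site within 2 kb of the outermost start. The x axis is the percentage of autosomal genes matched, the numbers beside the bars are counts, and the dashed line marks the 12.7% of all autosomal protein-coding genes. AP-1 and immediate early genes reach 15 of 30, whereas 0 of 1128 olfactory receptor genes had such a site.

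Of the 20 lists, AP-1 and immediate early genes had the largest share. Of 30 AP-1 and immediate early genes 15 (50%) had one, including Fos, Jun, Jund, Fosl1 and Fosl2 of the AP-1 dimer, and 27 of the 30 had any Rad21 summit. Fosl2 had the top site of the list, at 752 bp upstream of its start, with 21.5 for Rad21, 39.3 for Ctcf, 6.41 for Brg1 and 5.56 for Arid1a. Btg1, an antiproliferative factor, had 23.2, 22.5, 4.56 and 6.24, and Nfkbia, the inhibitor of NF-kB, had 3 sites. Fos itself had weaker architectural peaks, 2.96 for Rad21 and 4.18 for Ctcf, beside 4.49 for Brg1 and 5.44 for Arid1a. Feedback regulators of Ras and MAPK signalling counted 8 of 24 (33.3%), among them the phosphatases Dusp5, Dusp7 and Dusp4, the EGFR inhibitor Errfi1 and the Sprouty protein Spry4. Dusp5 had 22.9 for Rad21, 12.6 for Ctcf, 5.79 for Brg1 and 4.41 for Arid1a, and Errfi1 had 13.7, 16.6, 7.10 and 5.19.

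Of 32 genes of the epithelial-mesenchymal transition 14 (43.8%) had a site. Beside Col1a1 they included Col1a2 (20.2, 37.5, 4.41 and 5.48 for Rad21, Ctcf, Brg1 and Arid1a), the TGF-beta effector Smad3 (16.4, 13.5, 5.12 and 7.19), its inhibitor Smad7 with 3 sites, and further down Vim, Twist1, Snai2, Fn1 and Tgfb1. Of 32 cell cycle and p53 genes 13 (40.6%) had a site. The p53 ligase Mdm2 had 4.18, 76.3, 8.997 and 5.44, and the retinoblastoma relative Rbl1 had 5.69, 13.5, 5.20 and 4.70. Cdk1, the mitotic kinase, had 3.72 for Rad21, 3.76 for Ctcf, 8.10 for Brg1 and 3.71 for Arid1a. Trp53 had a Ctcf peak of 129 with an Arid1a peak of 1.62, near the calling threshold. Cytoskeleton and adhesion genes counted 6 of 26 (23.1%), led by Tpm4, Ezr, Actg1 and Vasp.

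Housekeeping families were unequal. Ribosomal proteins had sites at 26 of 76 genes (34.2%), for example Rpl10a (7.77, 37.9, 5.19 and 5.48 for Rad21, Ctcf, Brg1 and Arid1a) and Rpl37a (8.12, 7.17, 4.52 and 4.62). Heat shock and chaperone genes had 9 of 25 (36.0%). At Hspa8, the constitutive Hsc70 chaperone, the values were 4.72 for Rad21, 13.5 for Ctcf, 13.9 for Brg1 and 14.4 for Arid1a. Translation factors (4 of 28, 14.3%), glycolysis (4 of 23, 17.4%) and replication-dependent histones (10 of 67, 14.9%) were nearer to the share of all genes. Among genes with any Rad21 summit, however, histones had a site at 10 of 24, beside 2650 of 10905 over all such genes. Translation factors had 4 of 21 and glycolysis 4 of 17. Some histone genes shared 1 site, as Hist1h1t and Hist1h4c did. Eif4a2, an RNA helicase of translation initiation, had 3.58, 4.51, 9.88 and 10.2, and Pkm, a pyruvate kinase, had 5.75, 8.79, 8.53 and 1.87. Histone and ribosomal protein genes have near-identical copies or pseudogenes, so that the placing of reads among copies is uncertain for them.

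Several genes of the chromatin machinery carried 4-factor sites at their own promoters. Of 17 cohesin and Ctcf genes 5 (29.4%) did, with the cohesin regulator Pds5a (34.9, 79.7, 6.64 and 4.22 for Rad21, Ctcf, Brg1 and Arid1a), the ring subunit Smc3 (14.5, 63.5, 5.79 and 3.45), the acetyltransferase Esco1, the loader Nipbl and Ctcf itself, where Rad21 had 23.4, Brg1 2.12 and Arid1a 3.76. Of 25 SWI/SNF genes 4 (16.0%) did, which were Actb, Bcl7c, Smarcc2 and Ss18. Smarcc2, a core scaffold subunit, had 14.9 and 85.4 for Rad21 and Ctcf beside 2.26 and 7.16 for Brg1 and Arid1a. Polycomb genes counted 6 of 29 (20.7%), including Pcgf5, Rybp, Pcgf1 and the methyltransferase Ezh2. Genes of H3K9 methylation counted 6 of 16 (37.5%), which were the HP1 proteins Cbx3 and Cbx1, the methyltransferases Setdb1, Ehmt2 and Ehmt1 and the demethylase Kdm3a. Cbx3 had 4.01, 3.35, 5.96 and 5.44, whereas Cbx1 had 4.72, 13.5, 3.16 and 3.33.

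Among liver identity genes, transcription factors had a share above that of all genes and plasma proteins a share below it. Of 24 hepatocyte transcription factors 14 had any Rad21 summit and 4 (16.7%) had a site, namely Gata6, Xbp1, Cebpa and Foxa2. Their Rad21 peaks were strong, from 17.4 at Cebpa to 40.4 at Foxa2, while the Arid1a peak was 2.56 at Cebpa and 2.13 at Foxa2. Of 25 plasma protein genes 1 (4.0%) had a site, which was Apoh, and 6 of the 25 had any Rad21 summit. Markers of other liver cells likewise gave 1 of 22, which was the stellate cell factor Hand2. Hox genes counted 6 of 39 (15.4%), with Hoxa7 at 49.6 for Rad21 and 74.9 for Ctcf beside 4.49 for Brg1 and 3.93 for Arid1a, and Hoxb7, Hoxb6 and Hoxa5 also on the list. Zinc finger genes named Zfp counted 62 of 385 (16.1%), led by Zfp568 and Zfp703. Among olfactory receptor genes the count was 0 of 1128, which allows a share of up to 0.266%, and 35 of them had any Rad21 summit.

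Marks in both genotypes were then set against the 4-factor sites, none of which the rule used. A WT H3K9me3 summit lay within 1 kb of 2610 sites, or 48.9% (47.6 to 50.3), against 25.3% of all autosomal Rad21 summits. A KO H3K9me3 summit lay near 483 sites, or 9.05% (8.31 to 9.85), against 9.48%. The WT share was thus higher at 4-factor sites than at Rad21 summits in general, while the KO share was close to it. Of the sites with WT H3K9me3, 254 (9.73%) also had a KO summit, whereas 2356 had WT only, 229 had KO only and 2497 had neither. The lists themselves were of similar size, with 141657 WT and 131430 KO autosomal summits.

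The difference was seen at promoters and away from them. WT cells had H3K9me3 at 53.8% (52.1 to 55.4) of promoter sites, where 33.5% of all promoter Rad21 summits had it. KO cells had it at 8.40% (7.54 to 9.35), next to 7.85%. Distal sites had the mark at 38.7% (36.4 to 41.0) in WT cells, where the share of all distal Rad21 summits was 22.1%. Their KO share was 10.4% (9.07 to 11.96), next to 10.1%. The KO to WT ratio was 0.156 at promoter sites and 0.270 at distal sites, against 0.234 and 0.458 over all promoter and distal Rad21 summits. Rad21 summits with Brg1 and Arid1a but no Ctcf also had high WT shares, with 47.4% at promoters and 43.0% at distal positions, and KO shares of 7.75% and 13.9%. Their KO to WT ratios were 0.163 and 0.323. Rad21 summits with Ctcf but neither SWI/SNF subunit had 24.0% in WT and 6.78% in KO cells at promoters. High WT shares and low KO to WT ratios were thus not limited to sites with all 4 factors.

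These H3K9me3 peaks were no stronger than their list. Their median −log10 q-value at 4-factor sites, taken from the strongest summit within 1 kb, was 2.64 in WT. The median over single summits of the whole WT list was the same. A WT summit of at least 5 lay at 117 sites (2.19% of all sites), against 1.13% of all Rad21 summits. In KO cells 12 sites (0.225%) had a summit of that strength, against 0.575% of all Rad21 summits. When the WT list was cut to its strongest summits so that both lists held 131430, the WT share was 46.7% and the KO share remained 9.05%. The WT share also followed GC content and SWI/SNF strength. Median GC was 55.3% at sites with and 50.7% at sites without WT H3K9me3, of which 74.6% and 61.4% lay at promoters. Within promoter sites these medians were 59.0% and 56.9%, and within distal sites 48.3% and 46.1%. Among the 1334 sites with the lowest Arid1a values 44.4% had WT H3K9me3, and among the 1334 with the highest 54.4%, while 58.5% and 80.9% of them lay at promoters. Ordered by Brg1 the lowest and highest 1334 had 43.4% and 52.8%, with promoter shares of 60.9% and 76.3%. Ordered by Ctcf they had 50.7% and 45.5%, with promoter shares of 68.1% and 62.1%. At promoter sites with and without WT H3K9me3 the Brg1 medians were 3.70 and 3.37, and the Arid1a medians 3.33 and 3.27. At distal sites they were 3.19 and 3.16 for Brg1, and 2.90 and 2.70 for Arid1a. The part of GC content or of place in the WT H3K9me3 shares was not tested. Read depth and antibody efficiency of the WT and KO libraries cannot be told apart from genotype.

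H3K27me3 showed the opposite relation to the 4-factor sites. In WT cells 186 sites, or 3.49% (3.03 to 4.01), had a summit within 1 kb, against 12.4% of all autosomal Rad21 summits. In KO cells 84 sites, or 1.57% (1.27 to 1.94), had one, against 9.33%. Promoter sites had a WT share of 3.90% (3.31 to 4.58) and a KO share of 1.74% (1.36 to 2.22), where all promoter Rad21 summits had 12.1% and 9.64%. Distal sites had 2.62% (1.96 to 3.49) and 1.22% (0.801 to 1.86), where all distal Rad21 summits had 12.5% and 9.21%. Rad21 summits with Ctcf but neither SWI/SNF subunit had 18.5% in WT and 15.4% in KO cells at promoters, and those with Brg1 and Arid1a but no Ctcf had 2.99% and 1.06%. Low H3K27me3 shares thus went with the presence of Brg1 and Arid1a in both sets, with or without Ctcf. Of the 186 sites 50 (26.9%) had the mark in KO cells as well, and another 34 sites had it in KO cells only. Of all Rad21 summits with the WT mark 51.2% kept it. Of those with Brg1 and Arid1a but no Ctcf 29.8% kept it, so the lower kept share was not particular to sites with all 4 factors. The strongest KO summit within 1 kb had a median of 3.86 at 63 promoter sites and 2.42 at 21 distal sites, against 2.75 over single summits of the list. Taking the strongest summit raises the values at sites by construction, so the higher value at promoter sites is not read as a property of them.

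**Figure D4:**
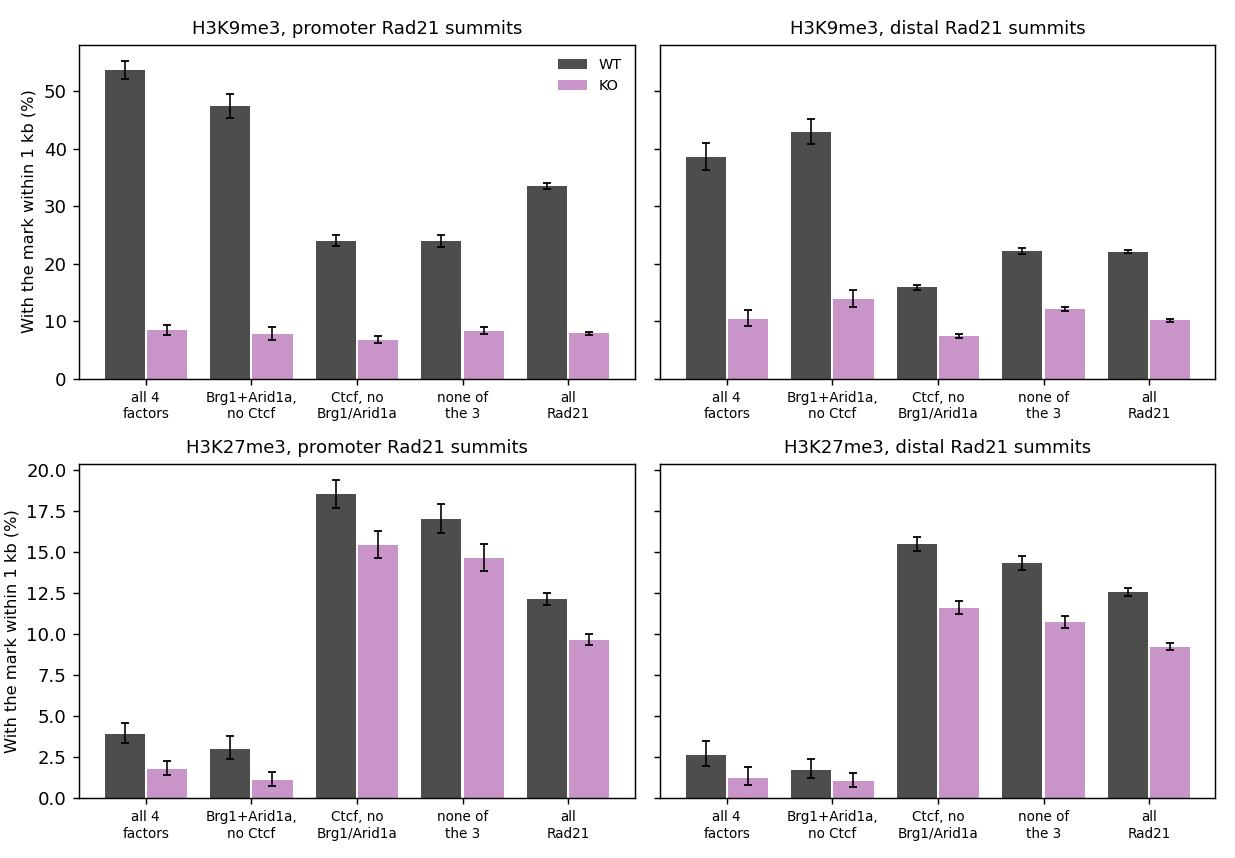
Share of Rad21 summits with an H3K9me3 (top) or H3K27me3 (bottom) summit within 1 kb, at promoters (left) and distal positions (right). Bars are percentages in WT (dark grey) and KO (pink) cells for 5 sets of Rad21 summits named on the x axis, and error bars are 95% Wilson intervals. At promoters the 4-factor sites have 53.8% WT and 8.40% KO H3K9me3 and 3.90% WT and 1.74% KO H3K27me3, next to 33.5%, 7.85%, 12.1% and 9.64% of all Rad21 summits.

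The density of summits in the region was compared as well, because mark shares varied with it. All promoter Rad21 summits were divided into 5 groups of 5658 by the number of factor summits within 10 kb. From the sparsest group, with 81 of the 4-factor sites, to the densest, with 1484, the WT H3K9me3 share of the 4-factor sites went from 46.9% to 56.0%, and that of all promoter Rad21 summits from 23.4% to 42.8%. The WT H3K27me3 share went from 13.6% to 2.56% at 4-factor sites and from 19.99% to 4.24% at all promoter Rad21 summits. The KO H3K9me3 share went from 14.8% to 7.48% at 4-factor sites and from 8.68% to 6.86% at all promoter Rad21 summits. That of the 4-factor sites was the higher in all 5 groups. From the middle group to the densest, however, the intervals included the share of all promoter Rad21 summits, with 6.25 to 8.93 in the densest. In the sparsest group the interval (8.68 to 24.1) had its lower limit next to that share. Within each group the 4-factor sites had the higher H3K9me3 share and the lower H3K27me3 share in WT cells, although in the sparsest group the H3K27me3 interval (7.76 to 22.7) included the share of all promoter Rad21 summits, and the WT distance between both sets was smallest in the densest group.

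Counted by gene, the same order was seen. A WT H3K9me3 summit lay within 2 kb of the start of 1831 of the 2650 genes with a 4-factor site (69.1%, 67.3 to 70.8), against 40.5% of all genes and 51.8% of the 8255 genes that had a Rad21 summit but no 4-factor site. In KO cells the count was 380 (14.3%), against 14.5% of all genes. WT H3K27me3 was present at 225 of these genes (8.49%) and KO H3K27me3 at 104 (3.92%), against 24.1% and 20.6% of all genes. Of the 15 AP-1 and immediate early genes with a site, 12 had H3K9me3 in WT and 2 in KO cells. For the 14 genes of the epithelial-mesenchymal transition these counts were 12 and 2, for the 26 ribosomal protein genes 18 and 3, and for the 13 cell cycle and p53 genes 7 and 0. They were 5 and 0 for the 8 Ras-MAPK feedback genes, 5 and 1 for the 9 chaperone genes, 2 and 0 for the 4 glycolysis genes and 1 and 1 for the 10 histone genes, so that the WT share was unequal among lists. Over whole lists, with or without a site, WT H3K9me3 was at 23 of 30, 21 of 32, 41 of 76 and 16 of 32 genes of the first 4 lists in this order. For the others it was at 14 of 24, 17 of 25, 8 of 23 and 12 of 67. The AP-1, cell cycle and Ras-MAPK shares were thus similar over the whole list, and the chaperone and histone shares were higher there. The epithelial-mesenchymal transition, ribosomal protein and glycolysis shares were lower over the whole list than at genes with a site.

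Among the top promoter sites, WT H3K9me3 without KO H3K9me3 was first met at Grcc10 (−log10 q-value 3.10), Prdx1 (2.03) and Alyref2 (2.64). Hexim1, Actb and H2afx, which ranked above them, had neither mark in either genotype within 1 kb. KO H3K9me3 without WT H3K9me3 was found at Ezr, the membrane-cytoskeleton linker, with a summit of 2.60, at Kansl1l with 1.75 and at a second site of Alyref2, 1427 bp upstream, with 2.47. The Alyref2 promoter therefore had the mark in both genotypes at different positions. H3K27me3 in WT only was found at H2afy2 (1.92), which encodes a macroH2A histone, at Ppp1r12a (2.09) and at Socs3 (2.66), the feedback inhibitor of cytokine signalling. H3K27me3 in KO only was found at Nrtn, a ligand of the GDNF family, with a summit of 12.7, at Lrp4 with 2.35 and at Raet1e with 4.20. WT H3K27me3 summits lay just outside the 1 kb window at Nrtn (1488 bp) and Lrp4 (1262 bp), so these regions carried the mark in both genotypes.

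The sites were unevenly spread over the chromosomes. They made up from 1.01% of the Rad21 summits of chromosome 14 (19 sites) to 8.55% on chromosome 19 (367 sites). Brg1 and Arid1a summits were also fewest on chromosome 14 and most frequent on chromosome 19, at 4.95 and 67.3 Brg1 summits and 3.67 and 64.5 Arid1a summits per Mb. On chromosome 13 there were 21 sites. Rad21 summits were ordered likewise at both ends, with 15.0 per Mb on chromosome 14 and 69.8 on chromosome 19. Brg1 and Arid1a summits were sparse on chromosomes 12, 13 and 14 (17.2, 7.89 and 4.95 Brg1 summits per Mb). Each other autosome had at least 23.5 Brg1 summits per Mb. The other lists were also lowest on these chromosomes. On chromosome 13 there were 17.9 Ctcf, 20.1 WT H3K9me3, 24.4 KO H3K9me3, 15.0 WT H3K27me3 and 9.62 KO H3K27me3 summits per Mb. From the lowest to the highest chromosome, sites per Mb differed 39.3-fold, Arid1a 17.6-fold, Brg1 13.6-fold and Rad21 4.66-fold. A site requires a Brg1 and an Arid1a summit, so few sites on chromosomes with few such summits follow from the rule. The genome of the AB17 line, including the copy number of its chromosomes, was not analysed here. On the 17 autosomes with at least 50 sites, the lowest and highest WT H3K9me3 shares were 31.7% and 57.9%, and the lowest and highest KO shares 2.44% and 12.4%. WT exceeded KO on 18 of 19 autosomes, with chromosome 13 as the exception, where 0 of 21 sites had WT H3K9me3. The WT H3K9me3 list was itself sparse on that chromosome. The WT share of the 4-factor sites was above that of all Rad21 summits of the same chromosome on 18 of 19 autosomes, again except for chromosome 13, and the KO share was above it on 5.

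**Figure D5:**
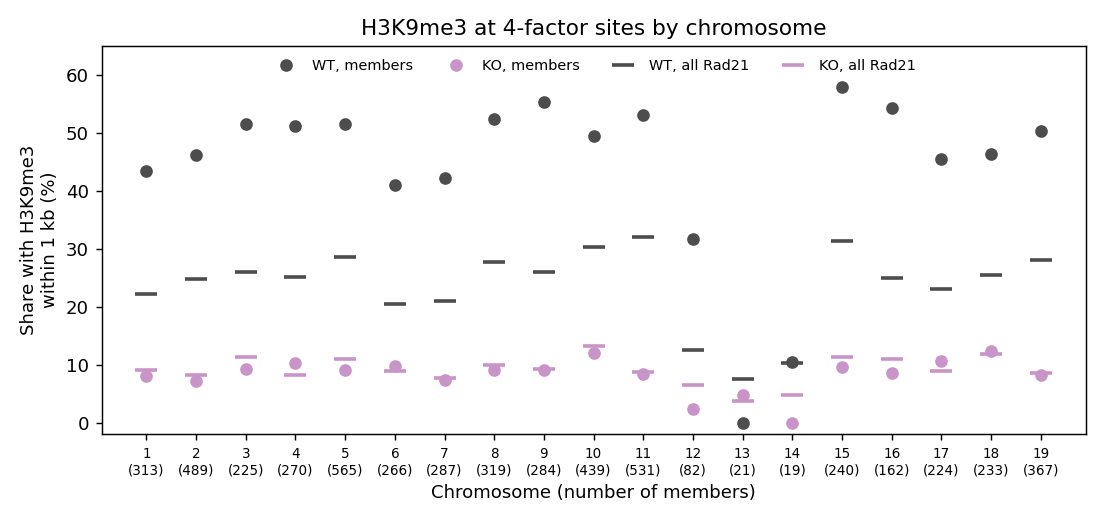
H3K9me3 at 4-factor sites by chromosome. The x axis gives the chromosome with its number of sites, and the y axis the percentage with an H3K9me3 summit within 1 kb. Dots are 4-factor sites and short dashes are all Rad21 summits of the chromosome, dark grey for WT and pink for KO. WT dots lie between 31.7% and 57.9% on the 17 chromosomes with at least 50 sites, above the WT dashes, while KO dots lie between 2.44% and 12.4%, near the KO dashes.

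Sequence motifs separated promoter sites from distal sites. Matches were counted on both strands, and a match is a string of letters and not a site of binding. The Ctcf core lay within 50 bp of 560 Rad21 summits of 4-factor sites (10.5%, 9.70 to 11.3), against 9.15% of all autosomal Rad21 summits and 16.3% of those with Ctcf but neither SWI/SNF subunit. It was present at 13.1% (11.6 to 14.8) of distal sites, against 9.55% of all distal Rad21 summits, and at 9.26% (8.36 to 10.2) of promoter sites, against 8.14%. Sites with the core had stronger architectural peaks, with medians of 9.66 for Rad21 and 31.5 for Ctcf, against 4.16 and 5.80 at sites without it. At the 236 promoter sites with a core near a protein-coding start, the core lay on the strand of the gene in 118 (50%, 43.7 to 56.3).

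Other motifs were searched within 250 bp of the Rad21 summit. The SP/KLF letters GGGCGG, which occur in GC-rich promoters and can overlap the CpG content given before, were present at 54.9% (53.3 to 56.5) of promoter sites, against 32% of all promoter Rad21 summits, and at 13.7% (12.2 to 15.5) of distal sites, against 8.87%. The ETS letters CCGGAAGT were present at 3.73% (3.16 to 4.40), against 1.94%, and the NRF1 palindrome at 0.967% (0.696 to 1.34), against 0.378%. The CCAAT box of NFY was less frequent, with 36.7% (35.1 to 38.3) of promoter sites against 42.4% and 46.1% (43.8 to 48.5) of distal sites against 49.1%. The SP/KLF, ETS and NRF1 letters were thus more frequent at promoter 4-factor sites than at promoter Rad21 summits, and the CCAAT box less frequent. Promoter Rad21 summits with Brg1 and Arid1a but no Ctcf had 46.9%, 4.09% and 0.924% in this order, and 41.5% for the CCAAT box. The ETS and NRF1 shares were thus not particular to sites with all 4 factors. The AP-1 letters TGANTCA were present at 20.03% (18.2 to 21.99) of distal sites, against 16% of all distal Rad21 summits and 26.5% of those with Brg1 and Arid1a but no Ctcf. At promoter sites AP-1 letters were found at 8.81% (7.93 to 9.78), against 11.4%. Around the Brg1 summits of distal sites the AP-1 share was 22.1% (20.1 to 24.1), against 18.7% of all distal Brg1 summits, and at promoters it was 9.84% (8.86 to 10.9), against 13.8%. The TEAD letters ACATTCC were present at 7.86% (6.68 to 9.23) of distal sites, against 7.34%, and at 5.69% (4.98 to 6.50) of promoter sites, against 5.94%, so that both backgrounds lay within the intervals.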

How the data were processed

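Of the 10 ChIP-seq samples of the AB17 line, 8 have a peak list, and the 2 inputs served as background in peak calling. Groups follow the genotype and antibody in the sample titles. The authors aligned reads to mm10 with bowtie2, processed them with SAMtools and Picard, and used MACS2 with its defaults to call peaks against input. Versions are not given in the sources used here. Each deposited list holds 1 summit per peak with its −log10 q-value, a unit read from the values. Narrow peaks split broad mark domains into several summits.

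Summits on chromosomes 1 to 19 were kept, with 1-based positions, and 0 lay beyond a GRCm38 chromosome end. Partners and marks were counted within 1 kb, and the strongest partner within it gave the value. GENCODE vM21 starts defined promoters (2 kb), and the GRCm38.p6 reference gave sequence and soft-masked repeats. Intervals are 95% Wilson intervals. Scripts used Python 3.11.15, pandas 2.3.3, scipy 1.17.1 and pysam 0.24.0, and the search for members was tested on simulated lists. Members and lists were chosen with earlier results of these data known. Genes named were the 12 top promoter and 8 top distal sites by the lowest of 4 factor values, up to 4 per gene list, and up to 3 per mark in 1 genotype only, and further named genes were chosen after their values were seen. Some genes the rule would name are not reported here. Brg1-centred motifs, density groups and chromosome counts were added after the data had been seen.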

Additional observations from a re-analysis of the deposited data

Results flagged for a closer look

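Outside the autosomes, 8 further Rad21 summits had Ctcf, Brg1 and Arid1a summits within 1 kb, a signal in summits that no comparison used. Of them 6 were among the 1487 Rad21 summits of chromosome X and 2 among the 104 of chromosome Y. The strongest was on X at 106186977 (−log10 q-value 33.0), and those on Y had 15.7 and 6.21.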

How the results depend on the processing

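The 7 summary results were recomputed under alternative settings, which gave 63 values, of which 27 stayed within the 95% interval (shares) or within 1.5 times (counts) of the reported value. The number of sites was 2010 with partners within 500 bp, 11341 within 2 kb, 2371 at a Rad21 −log10 q-value of at least 5, 1257 with all 4 factors at least 3 and 3418 without the densest regions (the 10% of Rad21 summits with most summits within 10 kb). The promoter share was 71.0% (500 bp), 61.0% (2 kb), 77.7% (all 4 at least 3) and 70.8% (densest regions left out) where it moved, and 58.3% and 78.9% with promoter windows of 1 and 5 kb. Genes with a site numbered 1227 (500 bp), 1346 (Rad21 at least 5) and 804 (all 4 at least 3). The WT H3K9me3 share was 51.4%, 42.9%, 50.3% and 54.4% under the first 4 settings, the KO share 8.06% at Rad21 of at least 5, the WT H3K27me3 share 4.18% without the densest regions, and the KO H3K27me3 share 1.96% (2 kb) and 0.955% (all 4 at least 3). With marks within 500 bp, H3K9me3 gave 32.1% in WT and 4.54% in KO cells, against 16.0% and 5.33% of all Rad21 summits. H3K27me3 gave 1.82% and 0.712%, against 7.41% and 5.31%. Within 5 kb the site shares in this order were 80.2%, 34.9%, 12.6% and 7.59%, against 60.4%, 34.4%, 27.1% and 21.9% of all Rad21 summits. For mark summits of at least 5 they were 2.19%, 0.225%, 0.543% and 0.412%, against 1.13%, 0.575%, 2.60% and 2.02%. With equal lists the WT shares were 46.7% and 2.72%, against 23.9% and 10.5% of all Rad21 summits. WT exceeded KO for both marks in every setting run. The cause of these moves was not tested, apart from wider windows and stricter thresholds counting more or fewer summits. No paired analysis was possible because each group holds 1 library and the titles carry no replicate numbers. Read depth is unknown and limits weak peaks most.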
